A study of Mus musculus with 6 samples.

Results

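The 10 mesoderm regulators described here are T, Mixl1, Eomes, Mesp1, Mesp2, Tbx6, Msgn1, Hand1, Bmp4 and Wnt3, named genes out of 21887 mouse protein-coding genes on the mm10 build. They were taken by name, and every region listed from 20 kb before to 20 kb after each gene was read. The data are chromatin immunoprecipitation sequencing (ChIP-seq) peak lists for WDR5 and for histone H3 trimethylated on lysine 4 (H3K4me3). All samples were mouse embryonic stem cells with a GFP knock-in at Rx, kept in 2i+LIF, a medium that holds the cells in the naive state, and all had lost both Wdr5 and p53. The mutant rescue carried WDR5 with the substitutions S91K and Y191F, and the WT rescue carried wild-type WDR5. Each line had 1 WDR5 library, 1 H3K4me3 library and 1 input library, and the inputs were not analysed here. The labels do not say whether a line was 1 clone. Because an antibody was used once in each line, differences between the lines are set against no replicate spread, and no test could be made.

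Mesoderm arises at the primitive streak, where the WNT ligand of Wnt3 and the BMP ligand of Bmp4 act on pluripotent cells and T-box, homeobox and basic helix-loop-helix (bHLH) transcription factors carry the fate forward. In embryonic stem cells the promoters of such developmental regulators are known for carrying H3K4me3 together with the repressive mark H3K27me3, which was not measured here. WDR5 is a subunit shared by the complexes that methylate lysine 4 of histone H3. H3K4me3 at a promoter does not by itself show that the gene is transcribed.

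An H3K4me3 region lay within 1 kb of the start site at 9 of the 10 genes in the mutant rescue, all but Bmp4, and at all 10 in the WT rescue. Among the 9 genes marked in both lines, the ratio of widths was farthest from equal at Tbx6, with 215 bp in the mutant rescue and 620 bp in the WT rescue (ratio 0.347). Near these genes lay 9 WDR5 regions in the mutant rescue and 6 in the WT rescue, none with a −log10 q of 2 or more. Few regions of the whole WDR5 lists reached that value either, 4.83% in the mutant rescue and 10.8% in the WT rescue. Over all protein-coding genes, 68.0% had an H3K4me3 region within 1 kb of a start site in the mutant rescue and 68.8% in the WT rescue. Such a region was present in the mutant rescue only at 0.722% of genes, none of the 10 among them, and in the WT rescue only at 1.51%. The H3K4me3 lists held 74305 regions in the mutant rescue and 71695 in the WT rescue, and the WDR5 lists 26888 and 11095 regions. Peak lists carry no read totals, so the depth of each library is unknown, and the width and number of regions depend on it.

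**Figure D1:**
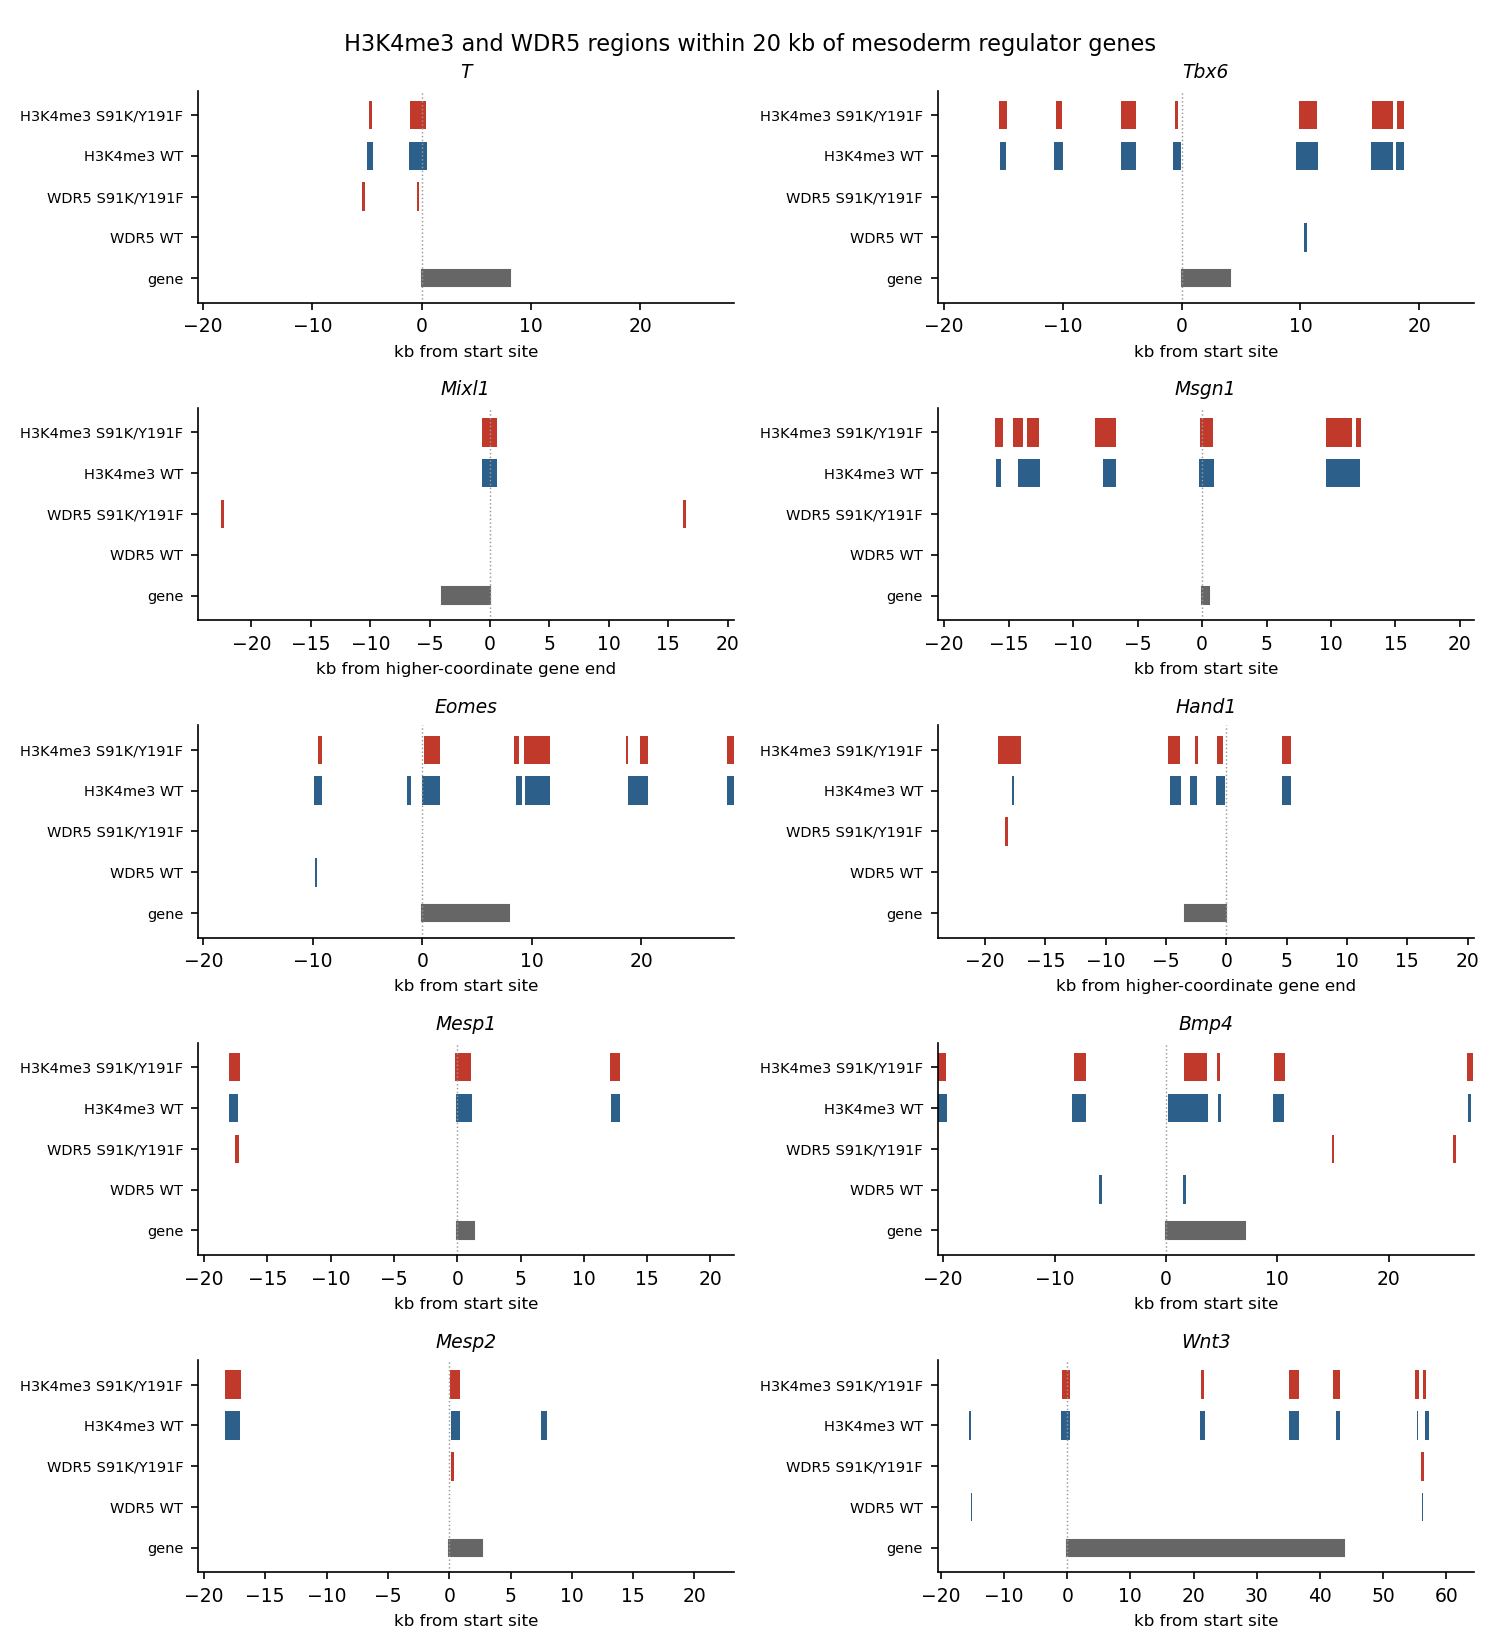
Regions of the 4 lists around each gene, with the distance in kb from the start site along the direction of transcription on the x axis (for Mixl1 and Hand1, from the higher-coordinate gene end along the chromosome). Red marks the mutant (S91K/Y191F) rescue and blue the WT rescue, grey bars are the genes, and regions are drawn at least 240 bp wide. H3K4me3 lies at nearly the same places in both lines, whereas WDR5 regions are few and overlap between the lines only beyond the end of Wnt3.

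Among the T-box genes, T (also called Brachyury) encodes the factor that gives the streak and notochord their identity. Its H3K4me3 region lay on chromosome 17 from 8433391 to 8434861 in the mutant rescue and from 8433234 to 8434941 in the WT rescue. The widths were 1471 bp in the mutant rescue and 1708 bp in the WT rescue, a ratio of 0.861. Measured along the direction of transcription, the region ran from −1032 to 438 bp around the start site in the mutant rescue and from −1189 to 518 bp in the WT rescue, so it was shorter at both edges in the mutant rescue. The authors' fold enrichment was 8.0 in the mutant rescue list, at or above that of 77.1% of its regions, and 7.98 in the WT rescue list, at or above 71.1%. An upstream region with its summit at −4705 bp in the mutant rescue and −4629 bp in the WT rescue was 237 and 481 bp wide. The predicted gene LOC115486424 overlaps the start of T, and H3K4me3 there cannot be assigned to either gene.

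The 250 bases upstream of T (plus strand, chr17:8434173-8434422) lay wholly inside the H3K4me3 region of both lines and are shown because a mutant rescue WDR5 region reached into them. Capitals mark CG dinucleotides.
T: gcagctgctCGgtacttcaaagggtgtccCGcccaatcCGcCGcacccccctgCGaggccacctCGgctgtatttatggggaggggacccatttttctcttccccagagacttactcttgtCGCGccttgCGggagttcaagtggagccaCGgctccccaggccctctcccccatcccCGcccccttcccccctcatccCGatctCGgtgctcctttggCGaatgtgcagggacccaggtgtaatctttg
The sequence holds 14 CG, as many as or more than 72.7% of the 32851 RefSeq promoters (assembly GRCm38.p6, the same coordinates as mm10), whose median is 6. A TCF/LEF core, the motif of the factors through which WNT signals reach genes, lies from −234 to −229 and a T-box motif from −14 to −9.

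Eomes, whose T-box factor acts in the streak and in definitive endoderm, had its promoter region on chromosome 9 from 118478321 to 118479810 in the mutant rescue and from 118478127 to 118479826 in the WT rescue. The widths were 1490 bp in the mutant rescue and 1700 bp in the WT rescue, a ratio of 0.876. Downstream edges were 16 bp apart, while the upstream edge lay at 132 bp in the mutant rescue and at −62 bp in the WT rescue. The start base was therefore inside the region in the WT rescue only. Over the 17492 genes of the promoter table this held for 1.5%, with the start base covered at 63.7% of genes in the mutant rescue and 64.1% in the WT rescue. Among the 8 members in that table it was covered at 4 in the mutant rescue (T, Mesp1, Msgn1 and Wnt3) and at 5 in the WT rescue (the same 4 and Eomes). The span of the lncRNA gene Gm33408 also reaches into this region.

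Around Eomes the WT rescue list held a region of 413 bp just upstream of the promoter, from 118476766 to 118477178, that no mutant rescue region overlapped. Beyond the gene, a region of 2324 bp in the mutant rescue and 2291 bp in the WT rescue lay in the lncRNA gene Gm33460. Farther on, the mutant rescue had regions of 215 and 747 bp, and the WT rescue had 1 region of 1804 bp from 118496995 to 118498798, which the smaller mutant rescue region did not touch. The region at the far edge of the window, inside Golga4, was 1396 bp in the mutant rescue and 1356 bp in the WT rescue. Within the window H3K4me3 covered 5664 bp in the mutant rescue and 7674 bp in the WT rescue, a ratio of 0.738 and the lowest of the 10 genes.

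Tbx6, which encodes a T-box factor of presomitic mesoderm, carried the narrowest promoter region among the 9 genes marked in the mutant rescue, and also the narrowest of all 10 in the WT rescue. It lay on chromosome 7 from 126780984 to 126781198 in the mutant rescue, with a fold of 1.78 and a −log10 q of 2.33, and from 126780801 to 126781420 in the WT rescue, with a fold of 3.63 and a −log10 q of 34.9. The fold was at or above that of 0.992% of the mutant rescue regions and of 33.9% of the WT rescue regions. In both lines the region lay upstream and did not reach the start site, running from −499 to −285 bp in the mutant rescue and from −682 to −63 bp in the WT rescue, with summits at −403 bp in the mutant rescue and −405 bp in the WT rescue. The width ratio of 0.347 was at or above that of 0.516% of genes. The regions at the starts of neighbours were closer in width between the lines: the Ypel3 region was 1217 bp in the mutant rescue and 1238 bp in the WT rescue, and the Ppp4c region 1515 bp in the mutant rescue and 1811 bp in the WT rescue. At the start of Aldoa lay regions of 1844 and 634 bp in the mutant rescue and of 1883 and 676 bp in the WT rescue. A region inside Gdpd3 was 499 bp (fold 2.67) in the mutant rescue and 802 bp (fold 4.96) in the WT rescue. The one at the Gdpd3 start was 611 bp in the mutant rescue and 548 bp in the WT rescue.

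The upstream 250 bases of Tbx6 (plus strand, chr7:126781233-126781482) are shown because 0 of them lay in the H3K4me3 region of the mutant rescue and 188 in that of the WT rescue. Capitals again mark CG.
Tbx6: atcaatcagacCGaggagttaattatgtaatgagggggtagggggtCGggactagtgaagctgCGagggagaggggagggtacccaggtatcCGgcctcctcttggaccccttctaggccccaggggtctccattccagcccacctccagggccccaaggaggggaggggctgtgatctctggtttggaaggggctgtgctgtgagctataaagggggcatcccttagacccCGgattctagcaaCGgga
With 6 CG this promoter is at the median of the table. It is the only member promoter of the 8 with the TATA box letters searched for (TATAAA or TTTATA), from −43 to −38. Other forms of the TATA box were not searched.

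Of the bHLH genes, Mesp1 and Mesp2 are neighbours on chromosome 7 with start sites 17.1 kb apart, so their windows share regions. Mesp1, an early gene of cardiac and cranial mesoderm, had a region from 79792482 to 79793768 in the mutant rescue and from 79792447 to 79793707 in the WT rescue. It was 1287 bp wide in the mutant rescue and 1261 bp in the WT rescue, with folds of 11.8 in the mutant rescue and 11.9 in the WT rescue. Mesp2, which sets segment borders in the presomitic mesoderm, had a region of 872 bp from 79810776 to 79811647 in the mutant rescue and of 753 bp from 79810877 to 79811629 in the WT rescue. The Mesp2 ratio of 1.16 was the highest of the group and at or above that of 96.2% of genes. Its folds of 13.0 in the mutant rescue and 15.5 in the WT rescue were at or above 93.0% of the mutant rescue regions and 95.6% of the WT rescue regions, and both regions began inside the gene, 49 and 150 bp past the start site.

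The Mesp pair differed in where the mark lay. The upstream 250 bases of Mesp1 (minus strand, chr7:79793591-79793840) had 178 bases in the mutant rescue region and 117 in the WT rescue region, whereas those of Mesp2 (plus strand, chr7:79810477-79810726) had 0 in either line. Both are shown with CG in capitals, to set the bases beside the place of the mark.
Mesp1: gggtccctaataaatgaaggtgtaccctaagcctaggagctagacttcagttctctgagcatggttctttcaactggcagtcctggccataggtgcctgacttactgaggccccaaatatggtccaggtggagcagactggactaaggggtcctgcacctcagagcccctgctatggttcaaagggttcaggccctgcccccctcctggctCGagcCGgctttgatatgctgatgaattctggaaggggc
Mesp2: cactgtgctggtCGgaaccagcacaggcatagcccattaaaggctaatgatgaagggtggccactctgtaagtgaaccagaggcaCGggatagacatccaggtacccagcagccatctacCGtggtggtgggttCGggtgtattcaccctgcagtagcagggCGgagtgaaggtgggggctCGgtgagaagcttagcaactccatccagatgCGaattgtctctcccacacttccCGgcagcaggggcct
Mesp1 has 2 CG, the fewest of the 8 member promoters, and Mesp2 has 8. Mesp1 holds a TCF/LEF core from −72 to −67 and another on the opposite strand from −31 to −26, and the Mesp2 window holds no TCF/LEF core and no T-box motif. A WT rescue region of 507 bp downstream of Mesp2, from 79818229 to 79818735, had no mutant rescue counterpart.

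Msgn1, a bHLH gene of presomitic mesoderm, had a region over the whole of its short gene on chromosome 12, from 11208073 to 11209077 in the mutant rescue and from 11208057 to 11209166 in the WT rescue. The widths were 1005 bp in the mutant rescue and 1110 bp in the WT rescue, a ratio of 0.905. With this promoter region included, the window held 7 regions in the mutant rescue and 5 in the WT rescue. Some stretches were split in the mutant rescue and listed as 1 region in the WT rescue. In the lncRNA gene 9530020I12Rik, mutant rescue regions of 407 and 2060 bp faced a WT rescue region of 2668 bp, and upstream of Msgn1, mutant rescue regions of 918 and 792 bp faced a WT rescue region of 1679 bp. Covered bases in the window were 7409 in the mutant rescue and 6868 in the WT rescue. Msgn1 had no WDR5 region in its window in either line.

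Hand1, a bHLH gene of lateral mesoderm, heart and trophoblast, is not in the promoter table, so regions within 1 kb of either gene end (chromosome 11, 57828713 and 57832147) were counted. There were 3 such regions in each line. They measured 1002, 209 and 489 bp in the mutant rescue and 941, 636 and 735 bp in the WT rescue, which gives 1700 and 2312 bp in all and a ratio of 0.735. The region just outside the lower end was thus slightly wider in the mutant rescue, and the regions inside the gene were narrower. Outside the gene, 13584 bp from it in the mutant rescue, a region of 1903 bp from 57813227 to 57815129 in the mutant rescue faced one of 230 bp from 57814339 to 57814568 in the WT rescue, a place singled out after its values were seen. Hand1 had the highest window ratio of the group, 1.34, with 4336 bp covered in the mutant rescue and 3237 bp in the WT rescue. Its region of 489 bp in the mutant rescue and 735 bp in the WT rescue also lay within 1 kb of the start of Gm32915.

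Mixl1, a homeobox gene of the primitive streak, is also outside the promoter table and had a single H3K4me3 region, at its higher-coordinate end (chromosome 1, 180697034). The region was 1238 bp wide in the mutant rescue, from 180696405 to 180697642, and 1203 bp in the WT rescue, from 180696438 to 180697640. Its folds of 13.2 and 13.8 were at or above 93.3% and 92.2% of the regions in the mutant and the WT rescue list. Its width was in the lower part of the range over all genes, at or above that of 26.2% in the mutant rescue and 21.1% in the WT rescue.

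The ligand gene Bmp4 (chromosome 14, minus strand) differed between the lines in how far its H3K4me3 reached toward the start site. One region inside the gene ran from 46386953 to 46389043 in the mutant rescue and from 46386900 to 46390466 in the WT rescue, with widths of 2091 bp in the mutant rescue and 3567 bp in the WT rescue. It thus ended 1626 bp past the start site in the mutant rescue and 203 bp past it in the WT rescue, and in neither line did it contain the start base. The other edge and the summit matched, with summits at 3080 bp in the mutant rescue and 3092 bp in the WT rescue, and the lncRNA gene Gm15222 lies within this stretch. The WT rescue width was at or above that of 99.9% of all regions in its list, and the fold there, 4.0, at or above 40.2%. In the mutant rescue the fold was 7.24, at or above 73.9%. Strong regions flanked the gene in both lines, of 1014 bp (fold 9.73) in the mutant rescue and 997 bp (fold 9.99) in the WT rescue at the lncRNA gene Gm15217. Upstream, a region of 1129 bp (fold 10.1) in the mutant rescue lay 7153 bp from the gene, and one of 1235 bp (fold 9.99) in the WT rescue lay 7161 bp from it.

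Bmp4's upstream 250 bases (minus strand, chr14:46390670-46390919) are shown as a promoter with 0 bases inside an H3K4me3 region in either line.
Bmp4: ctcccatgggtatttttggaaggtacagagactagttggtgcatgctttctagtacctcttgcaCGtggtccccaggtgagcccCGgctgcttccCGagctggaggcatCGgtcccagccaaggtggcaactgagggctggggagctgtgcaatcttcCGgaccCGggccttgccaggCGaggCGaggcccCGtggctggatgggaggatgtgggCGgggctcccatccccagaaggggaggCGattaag
It holds 11 CG, here in capitals, more than Mesp1, Msgn1, Tbx6, Eomes or Mesp2 but fewer than T. It is the only member promoter of the 8 with a Myc-type E-box, from −188 to −183.

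Wnt3, whose WNT ligand is needed for the primitive streak to form, had a promoter region on chromosome 11 from 103773347 to 103774606 in the mutant rescue and from 103773129 to 103774687 in the WT rescue. The widths were 1260 bp in the mutant rescue and 1559 bp in the WT rescue, a ratio of 0.808. The upstream edge lay at −828 bp in the mutant rescue and −1046 bp in the WT rescue, a shift of 218 bp that was at or above that of 96.3% of the 8806 genes with 1 start site and 1 region there in each line. The annotated span of Wnt9b overlaps this start. Inside the gene, a region with its summit at 35916 bp in the mutant rescue and 36083 bp in the WT rescue had a higher fold than the promoter region, whose fold was 8.23 in the mutant rescue and 8.0 in the WT rescue. It had widths of 1567 bp in the mutant rescue and 1477 bp in the WT rescue, with folds of 9.93 in the mutant rescue and 10.3 in the WT rescue. A smaller one, with summits at 21538 and 21532 bp, was 482 bp in the mutant rescue and 786 bp in the WT rescue, with folds of 4.70 in the mutant rescue and 9.43 in the WT rescue.

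The 250 bases upstream of Wnt3 (plus strand, chr11:103773925-103774174) lay wholly inside H3K4me3 in both lines and are shown as the most CG-rich of the member promoters.
Wnt3: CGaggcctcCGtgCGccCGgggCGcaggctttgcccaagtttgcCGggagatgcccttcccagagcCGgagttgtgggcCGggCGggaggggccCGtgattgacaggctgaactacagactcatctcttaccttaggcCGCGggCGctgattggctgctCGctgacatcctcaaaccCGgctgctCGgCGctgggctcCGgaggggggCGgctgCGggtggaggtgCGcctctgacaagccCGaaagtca
Its 22 CG, in capitals, are as many as or more than those of 86.7% of promoters, against 8 for Eomes and 4 for Msgn1. Across the 8 members no single order held, since Mesp1, with 2 CG, had a wider region than Mesp2, with 8.

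Motifs were searched on both strands of the 250 upstream bases. The TCF/LEF core (TCAAAG, or CTTTGA on the other strand) was in 3 of 8 members, T, Mesp1 and Msgn1, and in 13.8% of all promoters. The T-box motif (AGGTGT or ACACCT) was in T and Mesp1 and in 11.8% of promoters. The general E-box (CANNTG), which bHLH factors bind, was in 5 of 8 members and 66.2% of promoters, and the Myc-type E-box (CACGTG), a form of it, in 6.02%. The TATA box (TATAAA or TTTATA) was in 12.4% of promoters, and the CCAAT box (CCAAT or ATTGG) in T, Eomes and Wnt3 and in 33.8% of promoters. In T the T-box motif overlaps an E-box from −15 to −10. A match describes the letters in this window and not a bound site.

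**Figure D2:**
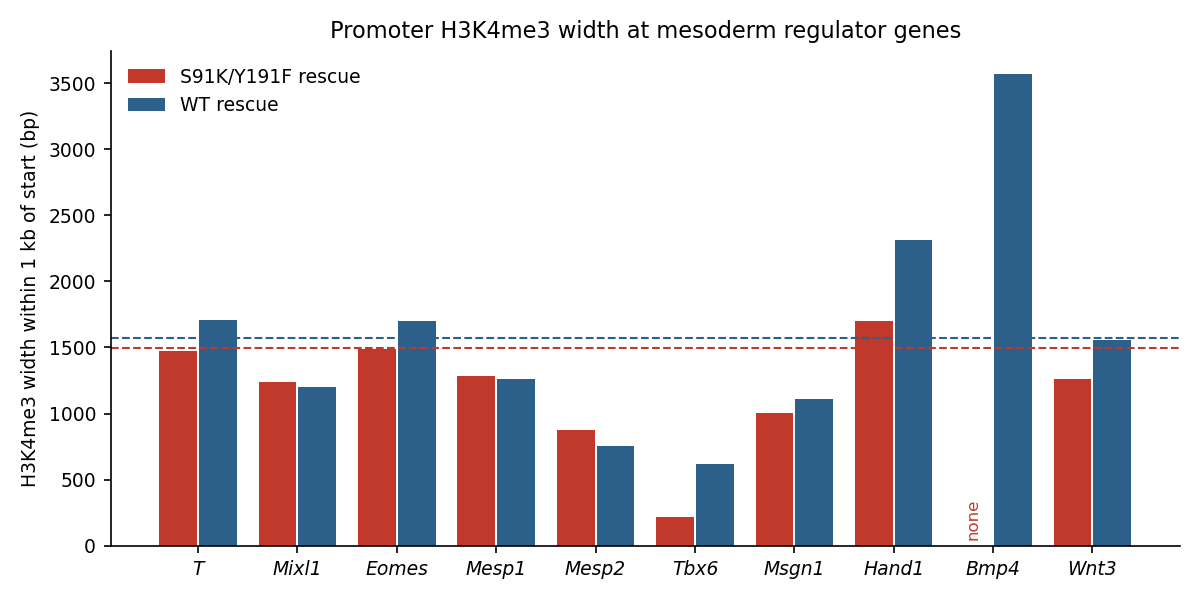
Summed width in bp of the H3K4me3 regions that overlap the window from 1 kb before to 1 kb after the start site, for the mutant (S91K/Y191F) rescue in red and the WT rescue in blue. For Mixl1 and Hand1 the regions at both gene ends were summed. Each bar is 1 library, dashed lines are the medians of all protein-coding genes with such a region (1493 bp in the mutant rescue and 1574 bp in the WT rescue), and Bmp4 has no region within the window in the mutant rescue.

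Set beside all genes, the median promoter width of the members was smaller in both lines, although in the WT rescue Bmp4 and Hand1 were at or above 98.6% and 86.3% of genes. The Hand1 width sums 3 regions near both gene ends, whereas genes in the promoter table were read at their start sites only. Its rank is therefore not that of a single broad promoter region. The members' median was 1260 bp over 9 genes in the mutant rescue and 1410 bp over 10 genes in the WT rescue, and the median over all protein-coding genes with a region was 1493 and 1574 bp. In the mutant rescue 6 of the 9 genes with a region in both lines were narrower than in the WT rescue, and 74.7% of all such genes were. The median ratio of mutant rescue to WT rescue width was 0.876 for the members and 0.949 for all 14727 genes, whose quartiles were 0.893 and 1.00. A width at least 1.5 times smaller in the mutant rescue was found at Tbx6 alone of the 9 genes and at 3.61% of all genes, and one at least 1.5 times larger at 0 of 9 and 1.17%. The share of members narrower by any amount was thus near that of all genes, while their median ratio lay below the lower quartile of all genes.

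**Figure D3:**
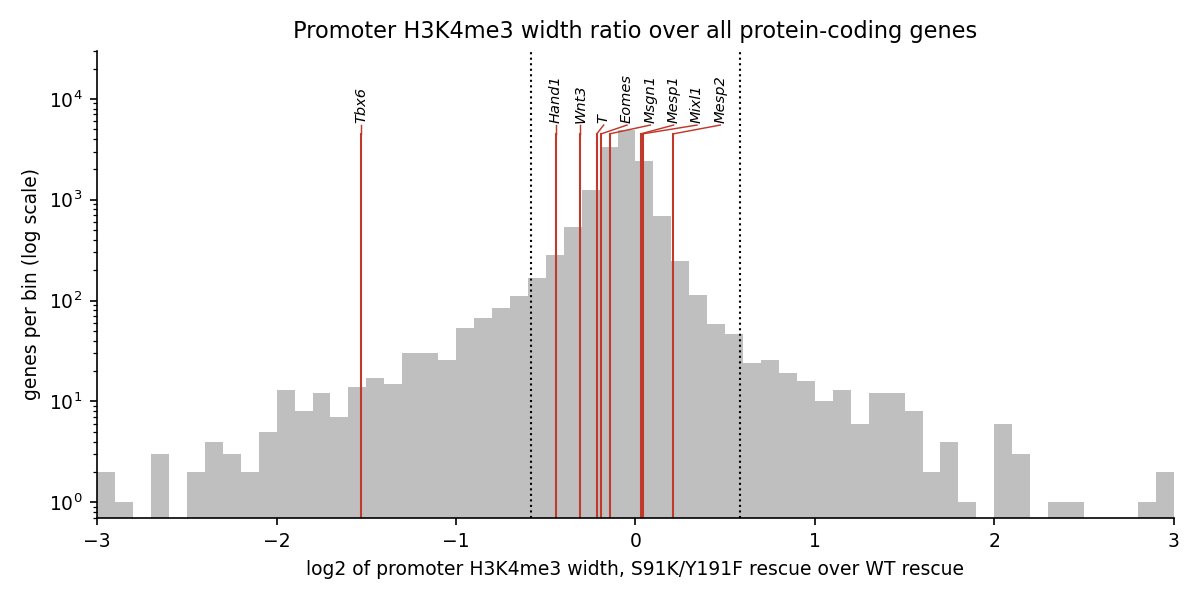
Distribution of the log2 ratio of promoter H3K4me3 width, mutant (S91K/Y191F) rescue over WT rescue, over the 14727 protein-coding genes with a region in both lines, with a log y axis of genes per bin and values beyond the axis placed in the end bins. Red lines mark the 9 members with a ratio and dotted lines a 1.5-fold difference, and Tbx6 is the member beyond it.

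Over whole windows the 2 lines listed H3K4me3 at similar places, counting an overlap of 1 bp or more, while the ratio of covered bases ran between 0.738 at Eomes and 1.34 at Hand1. The 10 windows held 44 distinct regions in each line, counting once those that Mesp1 and Mesp2 share. Of the mutant rescue regions 43 (97.7%, exact 95% interval 88.0 to 99.9%) were overlapped in the WT rescue, and of the WT rescue regions 41 (93.2%, 81.3 to 98.6%) in the mutant rescue. Of the whole lists 77.7% were overlapped for the mutant rescue and 80.7% for the WT rescue. The whole lists are not limited to windows around genes, and shares for such windows were not computed. The intervals cover counting error only. They treat regions as independent, although several lie in the same window, and they are no test against the whole lists. The unmatched regions were the one of 215 bp near Eomes in the mutant rescue and those near Eomes, Mesp2 and Wnt3 in the WT rescue, the last of 343 bp from 103758584 to 103758926. Fewer bases were covered in the mutant rescue at 6 of 10 windows and at 62.3% of all genes. A 1.5-fold fall or rise in covered bases occurred at 0 of 10 windows, and at 4.93% and 4.96% of all genes.

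WDR5 regions lay within 20 kb of 7 genes in the mutant rescue and of 4 in the WT rescue. Over all protein-coding genes the shares were 53.2% in the mutant rescue and 43.0% in the WT rescue. These genes are short, with a median length of 4029 bp against 17170 bp over all genes, so their windows are shorter too. Of genes up to 10 kb long, 39.1% in the mutant rescue and 33.1% in the WT rescue had a WDR5 region, and of the 9 members of that length 6 and 3 did. In the mutant rescue only there were 5 members (T, Mixl1, Mesp1, Mesp2 and Hand1), a class that held 25.0% of all genes. Tbx6 and Eomes were in the WT rescue only, like 14.8% of genes. Bmp4 and Wnt3 were in both, like 28.2% of genes, and Msgn1 in neither, like 32.0%. Mesp1 and Mesp2 were counted for the same region. With the mutant rescue list cut to the 11095 regions of the WT rescue list, 4 members had a WDR5 region in the mutant rescue and 4 in the WT rescue. The shares of all genes were then 31.7% and 43.0%. A 10 kb window on the full lists gave 3 members in each line. Of all genes, 42.5% in the mutant rescue and 35.4% in the WT rescue had a region in that window. The cause of the gap between the lines was not tested.

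Within 1 kb of the start site, WDR5 regions were found at T and Mesp2 in the mutant rescue and at no member in the WT rescue. Over all genes the shares were 9.65% in the mutant rescue and 16.5% in the WT rescue. The T region, 217 bp from 8433968 to 8434184, lay from −455 to −239 bp, with its summit at −362 bp, and the mutant rescue H3K4me3 summit was at −361 bp. Its fold was 2.38 and its −log10 q 0.0171. The last 12 bases of it fall in the T sequence shown above. The Mesp2 region, 293 bp from 79810839 to 79811131, lay inside the gene from 112 to 404 bp past the start, with a fold of 2.08 and a −log10 q of 0.0171, inside the H3K4me3 region of the mutant rescue. Neither place had a WDR5 region in the WT rescue list. The mutant rescue WDR5 list is the longer one, and when it was cut to the 11095 regions of the WT rescue list both of these regions were lost and 5.89% of all genes kept one.

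Farther from start sites, the mutant rescue WDR5 region with the highest −log10 q near any member lay beyond the end of Bmp4, from 46364665 to 46364867, with a fold of 3.11 and a −log10 q of 1.04. A second mutant rescue region lay at 46375528, and neither was on H3K4me3. In the WT rescue the Bmp4 regions lay elsewhere, from 46388890 to 46389104 inside the gene (fold 2.09, −log10 q 0) and from 46396457 to 46396607 upstream (fold 3.18, −log10 q 0.611). The region inside the gene straddled the point where the mutant rescue H3K4me3 ended, and it lay within the WT rescue H3K4me3 region. At Hand1 the mutant rescue WDR5 region of 190 bp, from 57813845 to 57814034 (fold 2.59, −log10 q 0.271), lay inside the distal H3K4me3 region that was wide in that line. At T a further mutant rescue region lay upstream at 8429001 (fold 2.93, −log10 q 0.523), and the pair around Mixl1 lay at 180674509, inside Lin9, and at 180713324, off H3K4me3.

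The Tbx6 window held WDR5 in the WT rescue only, from 126791850 to 126792016 at the start of Ppp4c, which encodes a phosphatase subunit, and the Eomes window from 118468400 to 118468584, over an upstream H3K4me3 region of the WT rescue. Both had a −log10 q of 0. The only place where the WDR5 lists met was in Nsf, 12104 bp beyond Wnt3 in the mutant rescue, where a mutant rescue region of 573 bp from 103830125 to 103830697 (fold 2.07) overlapped a WT rescue region of 171 bp from 103830297 to 103830467 (fold 2.84). Another WT rescue region lay 15103 bp before Wnt3, at 103758922. Thus 1 of 9 regions in the mutant rescue (11.1%, exact 95% interval 0.281 to 48.2%) and 1 of 6 in the WT rescue (16.7%, 0.421 to 64.1%) was overlapped in the other line, beside 5.09% and 12.3% of the whole lists. These intervals too treat regions as independent and are no test against the whole lists. On H3K4me3 of the same line were 4 of 9 regions in the mutant rescue and 4 of 6 in the WT rescue, beside 12.3% and 46.0% of the whole lists. Those lists are not limited to windows around genes, so their shares are not a matched background for these regions.

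**Figure D4:**
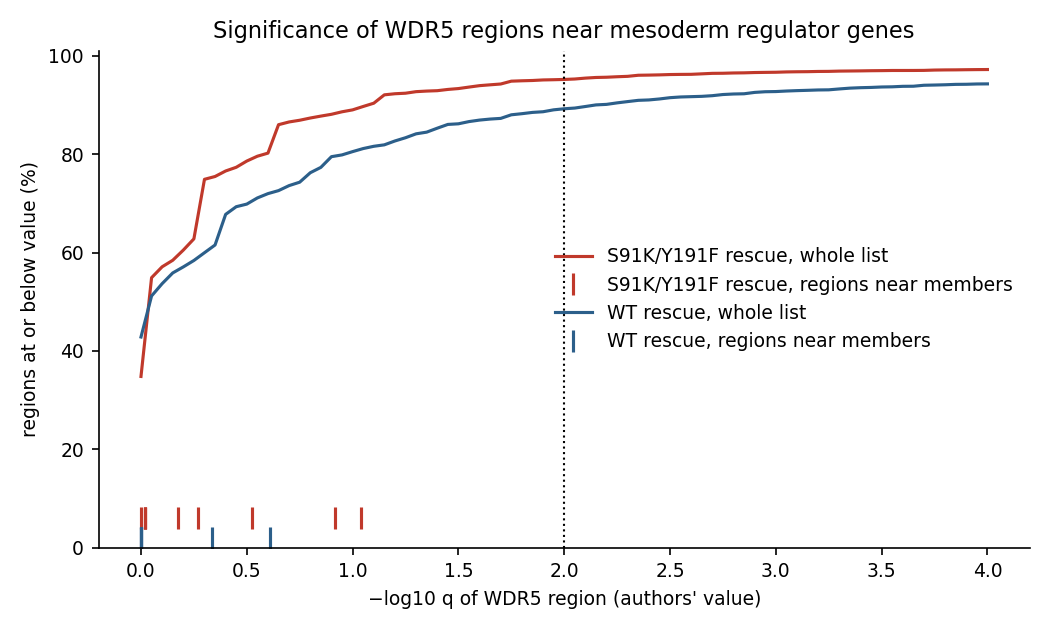
Cumulative percentage of WDR5 regions at or below each −log10 q (x axis, the authors' values) in the whole mutant (S91K/Y191F) rescue list in red and the whole WT rescue list in blue. The ticks at the foot of the plot mark the 9 mutant rescue and 6 WT rescue regions near the 10 genes, all of them left of the dotted line at 2.

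The wider pathway was read from a list of 59 primitive streak, NODAL, WNT, BMP and mesoderm genes, 20 of which are outside the promoter table and were read at both gene ends. H3K4me3 lay within 1 kb of the start at 55 of 59 genes (93.2%) in each line. Over all genes the shares were 68.0% in the mutant rescue and 68.8% in the WT rescue. The median width of the 55 genes was 1750 bp in the mutant rescue and 1829 bp in the WT rescue. Over all genes with a region the medians were 1493 and 1574 bp. The median ratio was 0.940 for the 55 genes and 0.949 for all genes. The region was at least 1.5 times narrower in the mutant rescue at 2 of 55 genes, near the 3.61% of all genes. These were the heart homeobox gene Nkx2-5, with 237 bp in the mutant rescue and 628 bp in the WT rescue, and the WNT ligand gene Wnt3a, with 1398 and 2432 bp. It was at least 1.5 times wider in the mutant rescue at 1 of 55, beside 1.17% of all genes, namely the NODAL antagonist gene Lefty2, with 2442 bp in the mutant rescue and 1559 bp in the WT rescue. WDR5 lay within 1 kb of the start of 3 of the 59 genes in the mutant rescue (5.08%) and 13 in the WT rescue (22.0%), beside 9.65% and 16.5% of all genes. The WNT feedback gene Axin2 was in both, and Cdx2 and Smad1 were in the mutant rescue alone. These 3 genes are named after their values were seen. The WT rescue folds were highest at the BMP target gene Id1 (3.02), Tcf15 (3.02), the signal transducer gene Smad3 (2.96), the NODAL pathway gene Foxh1 (2.95) and Id3 (2.83), and none of the 5 had a −log10 q of 2 or more.

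Promoter marks were also read at marker genes of the labelled cell type and of other cell types. All 9 embryonic stem cell marker genes had H3K4me3 at the start in both lines. Fibroblast markers had it at 5 of 8 genes in the mutant rescue and 7 in the WT rescue, trophectoderm markers at 4 and 4 of 5, and extraembryonic endoderm markers at 4 and 4 of 6. Over all protein-coding genes the shares were 68.0% in the mutant rescue and 68.8% in the WT rescue. Since this mark also lies at silent developmental genes, these counts neither identify the cell type nor measure other cells in the culture. The part of other cells in the results was not tested.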

How the data were processed

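WDR5 and H3K4me3 ChIP-seq was done once per line. Per the labels' protocols, cells were fixed for 10 minutes with 1% PFA (paraformaldehyde). The submitters' processing notes name MACS2 2.1.2, Picard, SAMtools and BWA 0.7.17-r1188, with the mm10 build, and the settings and control are not given in the sources used here. The 4 lists give for each peak a fold enrichment, a −log10 p and a −log10 q as deposited by the authors, along with a deposited score that was not used. The smallest −log10 p was 2.00. Each list belongs to 1 library. The fold is the authors' and was used only to describe or rank regions within its list.

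Start sites came from a RefSeq promoter table (GRCm38.p6), which holds 17492 of 21887 protein-coding genes and 8 of the 10 members; other genes were read at both gene ends. Promoter width is the sum of the regions within 1 kb of a start site, and overlaps are of at least 1 bp. Ratios are mutant rescue over WT rescue, and a 1.5-fold difference was the size rule. No test between lines was possible. The genes named were all members, neighbours marked in their windows, and up to 8 genes of the wider list by width ratio and then by WDR5 fold; Axin2, Cdx2 and Smad1 are named besides, after their values were seen. Members and lists were chosen with earlier results of these data known. The width code was tested on simulated data. Python 3.11.15, numpy 2.4.6, pandas 2.3.3, scipy 1.17.1 and matplotlib 3.10.9 were used.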

Additional observations from a re-analysis of the deposited data

How the results depend on the processing

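The presence of H3K4me3 at start sites kept within 1.5 times of the reported counts under every alternative run, from 9 to 10 members in the mutant rescue and 10 in the WT rescue. The median width ratio stayed between 0.794 and 0.876. The number of members with a 1.5-fold width difference rested on how a promoter region is bounded: 1 as reported (Tbx6), 2 with a 2.5 kb window (Tbx6 and Bmp4), 2 with a 500 bp window (Tbx6 and Hand1) and 3 with regions under 1 kb apart joined (Tbx6, Eomes and Hand1). It was 2 at the smaller size limit tried (Tbx6 and Hand1), and with bases counted within 5 kb it was 1, Bmp4, as the Tbx6 ratio was then 0.775 because part of the Ypel3 region falls in that window. Shares over all genes were computed for the reported width rule only, 3.61% narrower and 1.17% wider in the mutant rescue. Whether the other width counts differ from all genes cannot be told. WDR5 counts rested on the threshold. Keeping regions whose −log10 q reached 2 left 0 and 0 members within 20 kb in the mutant and the WT rescue, and 0 and 0 at start sites, while 6.23% and 6.86% of all genes had such a region within 20 kb. At start sites 1.75% of all genes had one in the mutant rescue and 2.43% in the WT rescue. Cutting the mutant rescue list to the length of the other gave 4 within 20 kb (31.7% of all genes) and 0 at start sites (5.89% of all genes). A 10 kb window gave 3 members in each line, beside 42.5% of all genes in the mutant rescue and 35.4% in the WT rescue, and a 2.5 kb start window added 1 WT rescue member, Bmp4. A 50 kb window gave 7 members in the mutant rescue and 5 in the WT rescue. A window of 20 kb on each side of the start site, added after seeing the data, gave 6 and 4. For these windows and the 2.5 kb start window, shares over all genes were not computed. No paired analysis was possible because each group had 1 library. A region missing from a list was not called there at the authors' threshold. Depth is unknown, so whether such a region was absent or missed cannot be told.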
